A study of Mus musculus with 4 samples.

Results

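The dorsal *Pax3* neuroepithelium of the caudal mouse embryo at E8.5 was described here from single-cell RNA sequencing of WT and *Grhl3*-null embryos. A cell was counted as dorsal *Pax3* neuroepithelium on its raw UMIs (unique molecular identifiers, each standing for 1 captured transcript). It held at least 2 UMIs of *Sox2*, at least 3 of *Pax6*, *Sox1*, *Fam181b* and *Nrcam* together, at most 1 of *Nkx1-2*, none of *T*, at least 1 of *Pax3* and none of *Nkx6-1*. The members were thus selected on the measured UMIs of these 9 genes, which are described and not tested. There were 265 such cells among 20198 that met the limits on quality (a minimum of 3000 genes and of 7500 UMIs, and no more than 7% of UMIs from mitochondrial genes), and among 856 cells of the whole neuroepithelium (the same gate with no condition on *Pax3* and *Nkx6-1*). The ventral neuroepithelium was gated in the same way with at least 1 UMI of *Nkx6-1* and none of *Pax3*, and held 418 cells.

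The embryos came from timed intercrosses of *Grhl3*+/- mice on a C57BL/6 background, and had 6 to 7 somites. The WT group was a pool of the caudal parts of 5 wild-type embryos, and the *Grhl3*-null group was a pool of the caudal parts of 3 embryos with a constitutive loss of *Grhl3*, which is lost in every tissue and not in the neuroepithelium alone. The tissue was dissociated with trypsin, and the pooled cells of a genotype were run as 2 libraries of the 10x 3′ kit. The libraries of a genotype are therefore repeat samples of 1 pool of cells, and the p-values below measure the spread between libraries and hold no spread between embryos. Differences between pools in sex, somite stage or cut level cannot be told apart from genotype.

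At this stage the spinal neural plate folds and closes into a tube. Bmp and Wnt proteins from the surface ectoderm and roof plate give its edges a dorsal identity, marked by *Pax3*, *Pax7*, *Msx* and *Zic* genes, while Sonic hedgehog from the notochord and floor plate gives the midline a ventral identity, marked by *Nkx6-1*, *Olig2* and *Foxa2*. The dorsal edge also gives rise to the neural crest. *Grhl3* encodes a grainyhead-like transcription factor made in the surface ectoderm and at the edge of the neural plate, and mice without it develop spina bifida.

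The 4 libraries held 39 and 28 dorsal cells in WT replicates 1 and 2, and 91 and 107 in *Grhl3*-null replicates 1 and 2. They carried 1374436, 1185645, 3591297 and 3832157 UMIs in the same order. Depth per cell was alike, with median UMIs of 32522, 35104, 35058 and 34950 and median gene numbers of 5620, 5790, 5873 and 5812. Levels are given below in CPM, a gene's UMIs summed over the dorsal cells of a library and scaled to a library total of 1000000. The 3′ kit counts transcript ends, and levels are compared between samples for the same gene. Between genes they serve only to name the member of a marker list with the most UMIs.

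The label was checked against markers. By the gate every cell held *Sox2* and *Pax3*, with a median of 4 to 6 *Pax3* UMIs in each library and a highest value of 44. *Pax6*, the paired-box regulator of neural progenitors, was found in 69.2% to 86.8% of the dorsal cells of a library, and *Sox1*, another gene of the neural plate, in 61.5% to 72.5%. Of the dorsal genes that the gate did not use, *Msx1* was found in 89.3% to 92.3% of dorsal cells, beside 32.3% to 38.6% of ventral cells and 25.8% to 32.1% of endothelium-like cells (median UMIs of 33946 to 38961 in its libraries). How much of the share in the latter is free RNA was not tested. The roof plate ligand *Wnt1* was found in 10.7% to 20.6% of dorsal cells and in no endothelium-like cell. No UMI of the roof plate secreted factor *Gdf7* was captured in the 265 dorsal cells, which allows a share of cells with a UMI of up to 1.13%. *Olig3*, another dorsal gene outside the gate, was found in 17.9% to 30.8% of dorsal cells and in 26.4% to 40.3% of ventral cells. Since the gate used *Sox2*, *Pax3*, *Pax6* and *Sox1*, their values describe the cells. The markers here that check the label are *Msx1*, *Wnt1*, *Gdf7* and *Olig3*, and *Olig3* did not set the dorsal cells apart.

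Markers of other cells were present and uneven. Removal of cells with UMIs of other cell types, crest among them, left 21 of 39, 13 of 28, 51 of 91 and 59 of 107 dorsal cells in WT 1, WT 2, *Grhl3*-null 1 and *Grhl3*-null 2. *Tcf15*, a regulator of somite formation, stood at 6.55 and 113 CPM in WT replicates 1 and 2, and at 76.0 and 27.9 CPM in *Grhl3*-null replicates 1 and 2. *Meox1*, also of the somites, stood at 4.37, 110, 65.7 and 39.9 CPM. The 16 paraxial mesoderm genes summed to 38.6, 358, 236 and 123 CPM, so WT replicate 2 was the highest and WT replicate 1 the lowest. Cells with at least 3 UMIs of *Tcf15* and *Meox1* numbered 1 of 39, 6 of 28, 6 of 91 and 7 of 107. The 8 endothelial genes summed to 6.55, 48.9, 5.85 and 4.18 CPM, with *Etv2* the most abundant, and *Cdh5*, which defines the type, was at 0 in WT replicate 1 and at 6.75 CPM in WT replicate 2. For the 7 haemoglobin genes the sum was 38.6, 33.7, 31.2 and 34.7 CPM, led by *Hba-x* and near the same in each library.

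Dorsal *Pax3* cells were a larger share of the *Grhl3*-null than of the WT libraries. They made up 0.714% (95% exact binomial interval 0.508 to 0.975) and 0.547% (0.364 to 0.790) of the filtered cells of WT replicates 1 and 2, and 1.88% (1.52 to 2.30) and 2.24% (1.84 to 2.70) of those of *Grhl3*-null replicates 1 and 2. Both *Grhl3*-null libraries lay above both WT libraries, with means of 0.631% ± 0.118 in WT and 2.06% ± 0.254 in *Grhl3*-null (SD, n = 2 libraries). The edgeR quasi-likelihood test on cell numbers gave a log2 difference of 1.70 ± 0.18 (SE, Benjamini-Hochberg adjusted p = 0.0072 over the 6 cell classes). Without WT replicate 1 the difference was 1.91 and did not pass (adjusted p = 0.051, edgeR), and with the cell numbers scaled by TMM it was 1.02 (adjusted p = 0.0029, edgeR). The intervals and all floors cover counting error only.

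Within the neuroepithelium a difference in the dorsal part did not pass the test. Dorsal cells took up 29.1%, 22.8%, 32.6% and 33.4% of neuroepithelial cells in WT 1, WT 2, *Grhl3*-null 1 and *Grhl3*-null 2, with a log2 difference of 0.34 ± 0.21 in favour of *Grhl3*-null (adjusted p = 0.46, edgeR). The neuroepithelium as a whole held 134, 123, 279 and 320 cells.

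The dorsal cells of the 2 genotypes differed in the proportion of the sexes. Cells were classed by *Xist*, the RNA of the inactive X chromosome, and by 4 Y-linked genes. Of the WT dorsal cells 59 were female, 6 male and 2 unclear, whereas of the *Grhl3*-null dorsal cells 17 were female, 151 male and 30 unclear. The male share of all filtered cells was lower in WT (23.1% and 23.6%) than in *Grhl3*-null (47.0% and 48.1%), but differed by far less than in the dorsal cells (7.69% and 10.7% against 75.8% and 76.6%). Among male cells, 0.238% and 0.249% were dorsal in WT against 3.03% and 3.57% in *Grhl3*-null, a log2 difference of 3.72 (adjusted p = 0.0040, edgeR). Among female cells the direction was opposite, with 1.03% and 0.705% in WT against 0.494% and 0.471% in *Grhl3*-null and a log2 difference of −0.85 that did not pass (adjusted p = 0.086, edgeR). Sex classes mark groups of embryos within a pool, so sex and embryo cannot be told apart.

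**Figure D1:**
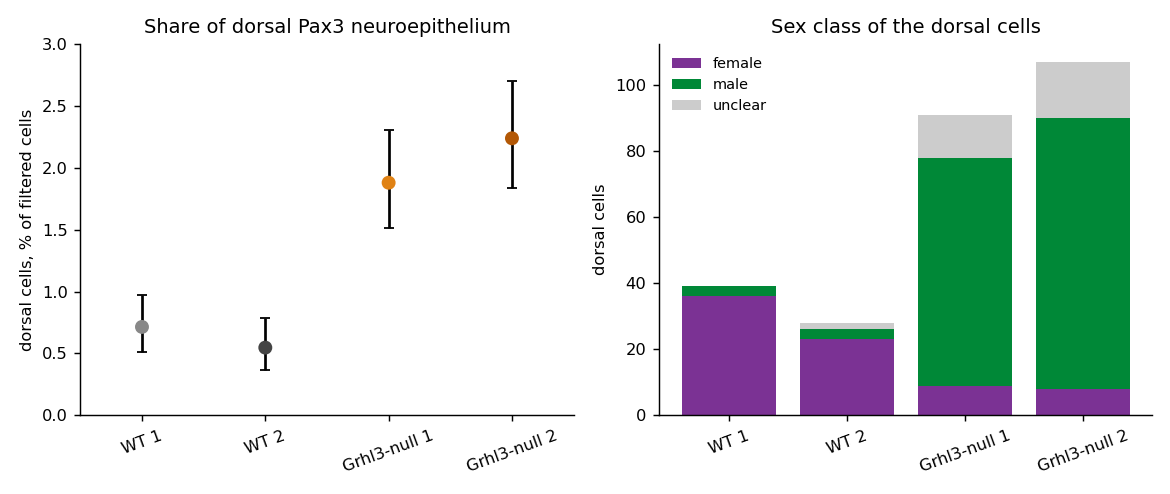
Left, dorsal *Pax3* cells as a percentage of filtered cells in each of the 4 libraries, with 95% exact binomial intervals. Right, the number of dorsal cells of each library classed as male, female or unclear. The *Grhl3*-null libraries lie at 1.88% and 2.24% and the WT libraries at 0.714% and 0.547%, and male cells are 6 of 67 in WT and 151 of 198 in *Grhl3*-null.

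Cells just inside the gate, with 1 *Pax3* UMI, numbered 37, and 93 had 2 to 5 and 135 had over 5. Summed over libraries, *Msx1* stood at 75.0, 129 and 319 CPM in these 3 sets, and at 39.1 CPM in the 101 neuroepithelial cells just outside, with neither *Pax3* nor *Nkx6-1*. *Msx3* went the same way at 9.82, 23.7 and 46.5 CPM, beside 5.53 CPM outside. *Gadd45a*, a stress-responsive gene, stood at 25.0, 45.6 and 184 CPM, beside 12.8 CPM outside. *Hes5*, a Notch target that keeps progenitors from becoming neurons, ran the other way at 145, 92.7 and 47.0 CPM, beside 149 CPM outside. On the other limit, 35 cells with *Pax3* and exactly 1 *Nkx6-1* UMI had 79.4 CPM of *Msx1* and 1.91 CPM of *Msx3*. These values are a description, since *Pax3* chose the sets. Near the other limits, 14 cells with a single *Sox2* UMI had 351 CPM of *Msx1*, beside 186 CPM in the 17 dorsal cells with 2. For the summed neural genes, 16 cells with 2 UMIs had 335 CPM of *Msx1*, beside 341 CPM in the 20 dorsal cells with 3.

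The dorsal cells were compared with the ventral cells of the same libraries, to ask which genes went with the dorsal side. Of 10382 genes tested over 8 sums (each class in each library, with the library as a block), 463 were called, which is 4.46%. To be called, a gene needed an adjusted p below 0.05 in edgeR together with an absolute log2 fold change of 0.5 or more. A gene was measured when it passed edgeR's filter on low counts (filterByExpr). Of these, 197 (1.9%) were higher and 266 (2.56%) lower in dorsal cells. Genes that go with *Pax3* or *Nkx6-1* in a cell differ by the way the cells were chosen, and the 9 genes of the gate were left out. A gene that passed the filter only through the class where it is high could only come out higher there. Counts are therefore also given, for each list whose calls then differ, for the genes that passed within each class alone, of which 3.38% of 9522 were called.

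Dorsal progenitor and roof plate genes were higher in dorsal cells. Of 18 on the list 14 passed the filter on low counts, and 11 were called higher and none lower, with 1 below 0. Of these 14, 13 passed within dorsal cells and 6 within ventral cells, so the filter could set the direction of most. Of the 6 that passed within both classes 3 were called, *Msx1*, *Zic2* and *Zic5*, all higher. Fitted in the WT libraries alone, 12 genes of the list were measured, with 10 called higher and 1 lower. *Msx1*, a Bmp-induced homeobox gene of the dorsal neural tube, stood at 255, 197, 188 and 259 CPM in the dorsal cells of WT 1, WT 2, *Grhl3*-null 1 and *Grhl3*-null 2, and at 24.3, 26.5, 20.3 and 16.2 CPM in the ventral cells. The classes did not overlap (log2 fold change 3.45 ± 0.11 SE, adjusted p = 2.6e-16, edgeR). *Msx3*, its dorsal spinal relative, stood at 26.9, 32.9, 31.2 and 40.7 CPM and was at most 0.84 CPM in ventral cells. *Zic1*, a zinc finger gene of the dorsal neural tube, lay at 12.4, 12.7, 21.7 and 32.6 CPM and had 2 UMIs in all ventral cells (ratio 169, exact interval 46.3 to 1405). The roof plate genes *Wnt1* (8.43 to 16.4 CPM), *Wnt3a* (5.90 to 13.3 CPM) and *Lmx1a* (6.75 to 16.4 CPM) were all above their ventral values. *Pax7*, which follows *Pax3* in the dorsal tube, was still low at 1.69 to 3.90 CPM.

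Ventral genes were lower. Of the 8 measured genes of the ventral and floor plate list, 7 were called lower in dorsal cells and none higher, but only 2 passed the filter within dorsal cells, *Ntn1*, which was called lower, and *Slit1*, which was not called. The others entered through the ventral cells. *Olig2*, the motor neuron progenitor gene, was at 0, 0, 0.278 and 0.261 CPM in dorsal cells against 43.2, 52.1, 106 and 83.5 CPM in ventral cells (2 against 1138 UMIs, ventral over dorsal ratio 395, exact interval 109 to 3267). *Nkx2-9* had 1 UMI in all dorsal cells and 337 in the ventral cells (ratio 234, interval 41.7 to 9270). *Foxa2*, of the floor plate and endoderm, lay at 0 to 0.728 CPM against 22.2 to 40.7 CPM. Of 7 intermediate progenitor genes 2 were higher and 2 lower, and of the 6 that passed within both classes 1 was higher and 2 lower. *Prdm13*, a gene of dorsal interneuron progenitors, was higher but passed through the dorsal cells alone, with 120 UMIs in dorsal and 1 in ventral cells (ratio 173, interval 30.4 to 6882).

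Of 8 measured neural crest genes 5 were called higher in dorsal cells and none lower. All 8 passed the filter within dorsal cells and 4 within ventral cells, and of those 4 *Sox9* and *Twist1* were called higher. *Foxd3*, an early crest regulator, stood at 10.9, 12.7, 11.7 and 38.9 CPM in dorsal cells, and its 221 dorsal UMIs set against none in ventral cells gave an at least 106-fold higher level (floor of 3 UMIs over the ventral cells, 0.209 CPM). *Tfap2b* had 164 dorsal and no ventral UMIs, an at least 78.7-fold higher level. *Sox9*, of premigratory crest, stood at 17.5, 27.0, 28.1 and 62.4 CPM against 2.94 to 9.51 CPM (log2 fold change 2.42 ± 0.16 SE), but was lower in dorsal cells (−0.97, adjusted p = 0.36, edgeR) once cells with UMIs of other cell types, crest among them, were removed. *Sox10*, of migrating crest, was at 3.64, 0, 1.95 and 1.57 CPM.

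Of 15 measured Bmp pathway genes 7 were higher in dorsal cells and none lower, as were 4 of the 10 that passed within both classes. The Id genes, which Bmp signals induce, were among them, with *Id2* at 330, 276, 251 and 276 CPM against 117 to 162 CPM, and *Id3* at 729, 662, 684 and 672 CPM against 432 to 506 CPM. The ligand *Bmp5* had 53 dorsal and 3 ventral UMIs (ratio 25.4, interval 8.25 to 127), and the Bmp antagonist *Nog* stood at 10.9 to 32.1 CPM against 2.10 to 4.94 CPM. Of 19 Wnt genes 8 were higher and 3 lower (6 and 3 of 17 that passed within both classes). The Wnt target *Axin2* lay at 38.6, 33.7, 36.5 and 47.2 CPM against 13.1 to 19.1 CPM, and the feedback inhibitors *Nkd1* (log2 fold change 1.68 ± 0.13) and *Notum* (3.35 ± 0.40) and the target *Sp5* (2.66 ± 0.15) were also higher. *Wnt4* was higher as well (2.48 ± 0.16).

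Hedgehog genes split by role, with 4 higher and 4 lower of 12 (4 and 3 of 10 that passed within both classes). The co-receptors *Gas1* (175, 165, 170 and 198 CPM against 64.2 to 74.5 CPM), *Boc* and *Cdon*, and the repressor-forming *Gli3*, were higher in dorsal cells. The targets *Ptch1* (57.5, 58.2, 75.5 and 74.4 CPM against 215 to 385 CPM), *Gli1* and *Hhip* were among the lower. The ligand *Shh*, which is on the ventral and floor plate list, was lower too. The classes did not overlap for these genes, other than *Shh*, which was also at 0 in the ventral cells of WT replicate 2. *Boc* and *Gli1* did not pass among female cells alone, nor *Boc* in the WT libraries alone. All 13 Notch genes lay below 0, and 4 were called lower, among them the ligand *Dll1* (−0.74 ± 0.13) and the effector *Hey2* (−1.56 ± 0.22). *Hes5* stood at 57.5, 60.7, 77.7 and 80.1 CPM against 209 to 277 CPM.

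Of 10 genes of neuron formation 5 were lower and 1 higher, and of the 7 that passed within both classes 4 were lower and none higher. *Neurog2*, a proneural factor, stood at 29.8, 21.1, 9.47 and 17.2 CPM against 36.1 to 54.9 CPM, and *Elavl4*, an RNA-binding protein of early neurons, at 4.73 to 11.8 CPM against 27.3 to 30.7 CPM. *Pou4f1*, a sensory neuron gene, was the higher member (2.42 ± 0.26) and passed through the dorsal cells alone. Of 21 pan-neural genes 6 were lower, *Sox3* (−1.25 ± 0.08) among them, and *Ptn*, a secreted growth factor, was higher (0.67 ± 0.04).

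Surface ectoderm and border genes divided into 6 higher and 6 lower of 14, of which only 4 passed within both classes (1 higher and 2 lower). *Grhl3* was among the higher, at 7.28 and 4.22 CPM in WT dorsal cells against 0.420 and 0.466 CPM in WT ventral cells. *Tfap2c* (121 dorsal UMIs against 1, ratio 174, interval 30.7 to 6939) and the border homeobox gene *Dlx5* (105 UMIs against none, at least 50.4-fold higher) were others. *Epcam*, an adhesion molecule of ectoderm and endoderm, was called lower at 2.78 to 5.22 CPM against 4.20 to 18.8 CPM, ranges that overlap. It was found in 6.59% to 14.02% of the dorsal and 7.14% to 13.4% of the ventral cells of a library. The visceral and gut endoderm genes of the ventral cells summed to as much as 1094 and 312 CPM, and their part in this call was not tested. *Gadd45a* stood at 72.8, 81.8, 110 and 154 CPM in dorsal cells against 12.4 to 17.2 CPM in ventral cells. *Nrg1*, a growth factor of the Egf family, stood at 31.3, 35.4, 26.5 and 22.7 CPM against 2.85 to 6.52 CPM, *Zic5* was at 47.3 to 83.5 CPM against 10.2 to 13.0 CPM, and *Hapln1*, a matrix link protein, at 13.1 to 34.6 CPM against 0.840 to 6.32 CPM. *Hapln1* was not called after removal of cells with UMIs of other cell types (0.64).

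**Figure D2:**
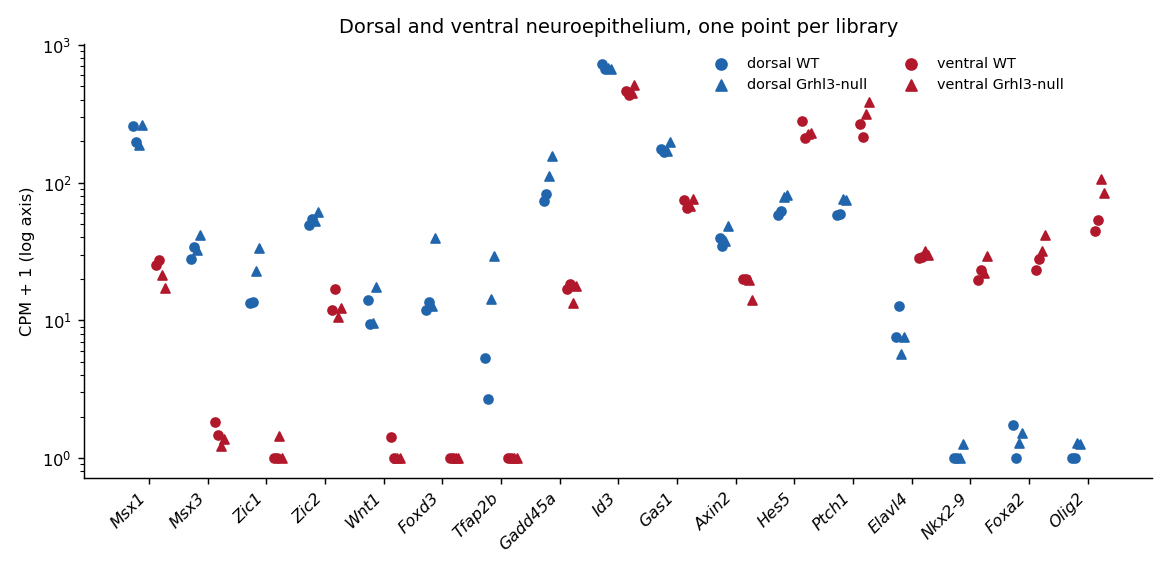
Levels of 17 genes in dorsal (blue) and ventral (red) neuroepithelium, 1 point per library, as CPM + 1 on a log axis, with circles for WT and triangles for *Grhl3*-null. The classes do not overlap for any gene shown. *Msx1* lies at 188 to 259 CPM in dorsal and 16.2 to 26.5 CPM in ventral cells, and *Ptch1* at 57.5 to 75.5 and 215 to 385 CPM.

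Some of the called genes were markers of other cells. Of the 12 measured paraxial mesoderm genes 7 were called higher in dorsal cells, and of the 7 that passed within both classes 3, and *Tcf15* (2.77 ± 0.40) and *Meox1* (2.27 ± 0.30) overlapped between the classes. DESeq2 called none of the 12 (median 2.14). Nor was any of 6 called (median −0.37) with cells of 3 or more *Tcf15* and *Meox1* UMIs removed, a choice made on genes of this list. In the ventral class the secreted visceral endoderm genes were uneven, with the 9 genes summing to 34.4, 1094, 366 and 66.6 CPM, led by *Rbp4* (3.36, 367, 93.5 and 7.80 CPM) and *Ttr* (4.62, 267, 78.3 and 21.9 CPM). In the dorsal class the same genes summed to 32.0, 43.0, 45.4 and 63.1 CPM. In dorsal cells 7 of 8 visceral endoderm genes were called lower (1 of the 2 that passed within both classes). So were 2 of 4 gut endoderm genes (1 of 2). Of these, *Apom* and *Apoa1* of the visceral and *Spink1* of the gut endoderm list were among the strongest differences. *Car4*, which is on neither list, was another. Whether these calls came with the uneven ventral signal was not tested. *Apln*, a signalling peptide, was even across ventral libraries at 21.4 to 36.7 CPM and lay at 3.64 to 5.06 CPM in dorsal cells.

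No gene of the S phase list (22 measured), the G2 and M phase list (22), the folate and one-carbon list (17), the dissociation list (5), the endothelium list (3) or the haemoglobin list (4) was called, nor any of the 5 sex-linked genes, although 21 of 22 G2 and M phase genes lay below 0 (median −0.19). Few calls came from the glycolysis list (1 higher of 21), the apical junction list (1 higher, 1 lower of 23), the p53 target list (1 higher, *Phlda3*, and 1 lower of 14) and the planar cell polarity list (1 higher, 2 lower of 14). Among the genes that passed within both classes these were none of 20, 1 higher of 21, 1 higher and 1 lower of 11, and 2 lower of 12. Among Fgf genes 3 were higher and 1 lower of 14, and among retinoic acid genes 2 higher (*Aldh1a2* and *Crabp1*) and 2 lower (*Nr2f1* and *Rarb*) of 15. *Cyp26a1*, which degrades retinoic acid, is on the neuromesodermal list, where 3 were higher and 2 lower of 12 (2 and 2 of 9). Of 26 measured *Hox* genes 3 were higher, *Hoxb6* (0.84 ± 0.14) and *Hoxd1* (1.28 ± 0.23) among them, and none lower.

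The *Grhl3*-null and WT dorsal cells were then compared, to ask what loss of *Grhl3* went with inside the dorsal *Pax3* cells. *Grhl3* itself was measured at 7.28 and 4.22 CPM in WT dorsal cells (10 and 5 UMIs, held by 2 of 39 and 2 of 28 cells) and at 0 in both *Grhl3*-null libraries, an at least 14.5-fold lower level (floor of 3 UMIs over the *Grhl3*-null cells, 0.404 CPM). On so few UMIs *Grhl3* did not pass with either *Grhl3*-null library left out (−6.65 and −6.58 in the fit). Of 9623 genes tested, 65 were called (0.675%), 21 of them higher (0.218%) and 44 lower (0.457%) in *Grhl3*-null cells. DESeq2 called 38. All 65 kept their direction wherever they were tested in the alternatives that used cells of both sexes. Among male cells 60 could be tested, of which 17 turned and 3 were still called, and among female cells 55, of which 6 turned and 35 were still called. With each library left out in turn 32 of the 65 kept their call every time. Each of these fits leaves 1 library of a genotype, which is assumed to vary like the 2 of the other.

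None of the 13 measured dorsal and roof plate genes was called (median 0.27), nor any of the Bmp (13), Wnt (19), hedgehog (10), Fgf (14), Notch (13), planar cell polarity (13), apical junction (21), pan-neural (20), intermediate (7), ventral (2) or neurogenesis (8) genes. Of the dorsal and roof plate genes, a replicate block called 2 of 13 higher and none lower. So did removal of cells with 3 or more *Tcf15* and *Meox1* UMIs. In female cells 3 of 6 were called higher and 1 lower. The median of that list was 0.051 without *Grhl3*-null replicate 2. That of the Notch genes was −0.32 without WT replicate 1 and 0.099 without WT replicate 2. *Msx1* differed by −0.03 ± 0.13 on the log2 scale and *Zic2* by 0.15 ± 0.15. *Zic1* (1.12 ± 0.28, adjusted p = 0.081) and *Zic5* (0.58 ± 0.15, adjusted p = 0.091) were higher in both *Grhl3*-null libraries and did not pass. Of 22 G2 and M phase genes 20 lay above 0 (median 0.16), and of 22 S phase genes 16 lay below 0 (median −0.071), but none was called. No p53 (11), folate (17), glycolysis (21), dissociation (4), haemoglobin (3), paraxial (11) or visceral endoderm (2) gene was called, and no endothelial gene was measured. For the paraxial genes this depended on the WT libraries, since 3 of 13 were called lower without WT replicate 1 (median −0.95) and 6 of 13 higher without WT replicate 2 (median 2.96).

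The largest group of lower genes was that of cholesterol synthesis. Cells make cholesterol from acetyl-CoA through mevalonate, farnesyl diphosphate and squalene, and the genes of the chain are switched on together by the SREBP2 transcription factor when sterols run low. The list of 20 enzymes was drawn up after the values were seen. All 20 lay below 0 in *Grhl3*-null dorsal cells, with a median of −0.85 against 0.0015 for all genes, and 12 were called lower and none higher.

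The entry to the pathway is carried by *Acat2* and *Hmgcs1*. *Acat2* stood at 221 and 200 CPM in WT and 88.0 and 106 CPM in *Grhl3*-null libraries, and *Hmgcs1* at 248 and 232 against 135 and 138 CPM (log2 fold change −0.82 ± 0.09 SE, adjusted p = 4.5e-05, edgeR). The mevalonate steps *Mvk*, *Pmvk* and *Mvd* fell by 0.81, 0.90 and 1.12 on the log2 scale. *Idi1*, which makes dimethylallyl diphosphate, went from 356 and 280 to 169 and 151 CPM, and *Fdps*, which joins the units to farnesyl diphosphate, from 350 and 312 to 132 and 134 CPM. *Fdps* had the largest change of these (−1.33 ± 0.09, adjusted p = 1.5e-07, edgeR). *Fdft1*, the squalene synthase, lay at 127 and 88.6 against 44.6 and 47.2 CPM. The later enzymes *Sqle*, *Cyp51*, *Msmo1* and *Nsdhl* fell by 0.74, 0.67, 0.96 and 1.21. For each of these 12 genes both *Grhl3*-null libraries lay below both WT libraries. The 12 were picked by their calls for this same difference, so the separation adds no support. The other 8 genes of the list did not pass. With a library left out, *Mvk* was not called without WT replicate 1 (−0.59) or *Grhl3*-null replicate 1 (−0.65), nor *Cyp51* without WT replicate 1 (−0.47).

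Other lipid genes were lower as well. Of 10 fatty acid synthesis genes all lay below 0 and 4 were called lower, the desaturases *Scd1* (−0.68 ± 0.13) and *Scd2* (−0.58 ± 0.09), the synthase *Fasn* (−0.52 ± 0.09) and the elongase *Elovl6* (−0.59 ± 0.13). In male cells none of 9 was called, 2 lay below 0 and the median was 0.29, whereas in female cells 4 of 8 were called lower. Of 10 genes of sterol regulation and uptake, 2 were called lower, among them *Insig1*, which holds SREBP back (−0.87 ± 0.17). *Scd2* (−0.47), *Fasn* (−0.49) and *Elovl6* (−0.45) were not called without WT replicate 1, *Insig1* (−0.69) without WT replicate 2, *Scd1* (−0.62), *Elovl6* (−0.65) and *Insig1* (−0.91) without *Grhl3*-null replicate 1, and *Scd2* (−0.47), *Fasn* (−0.45) and *Elovl6* (−0.51) without *Grhl3*-null replicate 2. *Pcyt2*, of phosphatidylethanolamine synthesis, went from 56.8 and 38.0 to 20.6 and 19.6 CPM.

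The summed level of the 20 sterol genes was 2440 and 2130 CPM in WT dorsal cells and 1203 and 1243 CPM in *Grhl3*-null dorsal cells. WT dorsal cells also lay above WT ventral cells (1490 and 1546 CPM), whereas the *Grhl3*-null dorsal cells lay next to the *Grhl3*-null ventral cells (1259 and 1277 CPM). In the neuroepithelial cells with both *Pax3* and *Nkx6-1* the sums were 1851 and 1880 against 1004 and 1122 CPM, in paraxial mesoderm-like cells 1231 and 1255 against 1113 and 1080 CPM, and in endothelium-like cells 912 and 937 against 747 and 679 CPM. Both *Grhl3*-null libraries were below both WT libraries in each of these classes. By sex, the sum in female dorsal cells was 2472 and 2288 CPM in WT and 1027 and 856 CPM in *Grhl3*-null. In male dorsal cells it was 2053 and 1855 CPM in WT, from 3 cells in each library, and 1283 and 1217 CPM in *Grhl3*-null. Fitted within female cells 12 of 19 measured genes were called lower, and within male cells none, with 17 of 19 below 0 (median −0.58). *Fdps* (0.22) and *Acat2* (0.27) turned to higher values in male cells, as did *Scd1* (0.29) and *Scd2* (0.28).

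**Figure D3:**
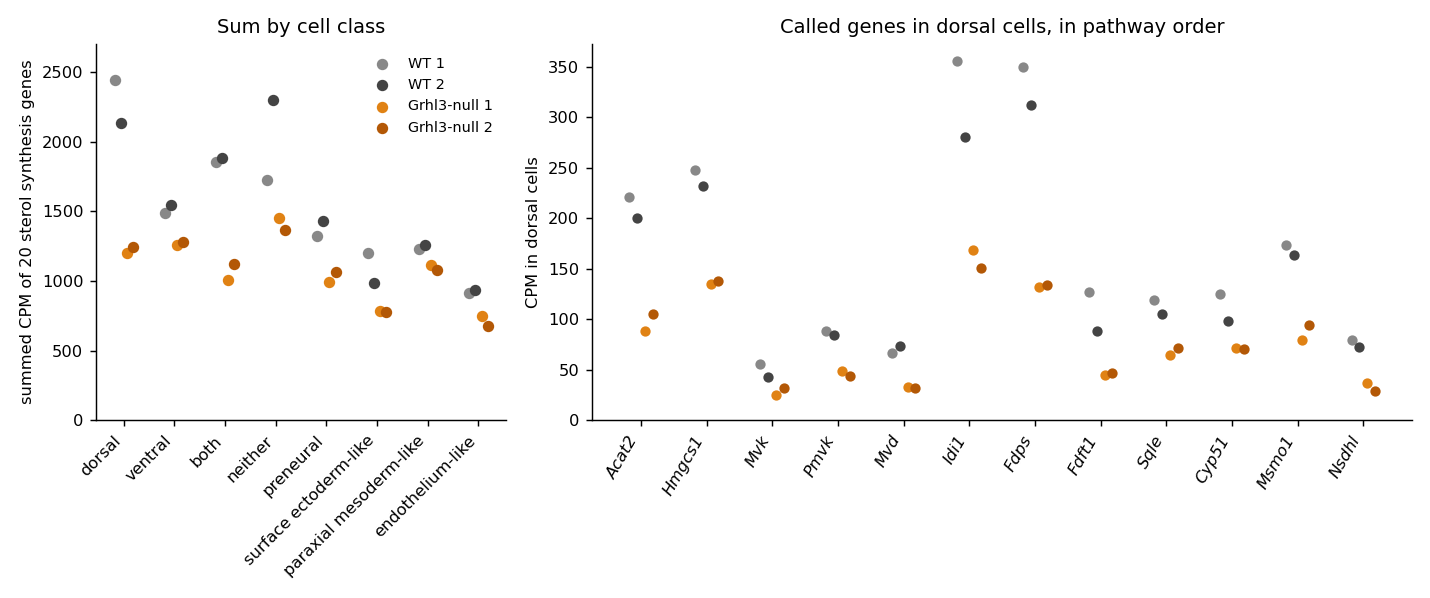
Left, summed CPM of 20 cholesterol synthesis genes in 8 cell classes of each library. Right, the 12 of them called lower, in the dorsal cells of each library and in pathway order. Grey points are WT and orange points *Grhl3*-null. The dorsal sums are 2440 and 2130 CPM in WT and 1203 and 1243 CPM in *Grhl3*-null, a wider gap than in ventral cells (1490 and 1546 against 1259 and 1277 CPM).

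Promoters of 3 of these genes are shown. They are those called for a more negative genotype difference in dorsal than in ventral cells (tested below) and with a sequence in the RefSeq table (build GRCm38.p6, the same as mm10). Each runs from 250 bases before to 50 after the gene start, 5′ to 3′ on the gene's strand. Capitals mark TCACNCCAC, the core of a sterol regulatory element, and CCAAT, which NF-Y binds, each searched on both strands so that CCAAT on the other strand reads ATTGG. The motifs share no letters. *Hmgcs1* lies at chr13:119690101-119690400 (+ strand), *Idi1* at chr13:8885356-8885655 (+ strand) and *Msmo1* at chr8:64733529-64733828 (− strand).
Hmgcs1: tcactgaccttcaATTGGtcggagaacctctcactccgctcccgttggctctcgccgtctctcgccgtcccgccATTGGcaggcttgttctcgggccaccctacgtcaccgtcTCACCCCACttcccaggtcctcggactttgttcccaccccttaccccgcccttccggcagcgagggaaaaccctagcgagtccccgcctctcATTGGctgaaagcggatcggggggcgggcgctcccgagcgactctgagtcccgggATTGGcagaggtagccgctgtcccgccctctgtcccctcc
Idi1: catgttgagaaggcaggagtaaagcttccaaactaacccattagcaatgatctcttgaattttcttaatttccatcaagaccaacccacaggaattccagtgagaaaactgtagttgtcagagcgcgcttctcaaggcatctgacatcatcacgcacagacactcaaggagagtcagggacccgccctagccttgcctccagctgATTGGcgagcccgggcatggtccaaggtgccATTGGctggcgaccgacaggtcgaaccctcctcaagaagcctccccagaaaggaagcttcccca
Msmo1: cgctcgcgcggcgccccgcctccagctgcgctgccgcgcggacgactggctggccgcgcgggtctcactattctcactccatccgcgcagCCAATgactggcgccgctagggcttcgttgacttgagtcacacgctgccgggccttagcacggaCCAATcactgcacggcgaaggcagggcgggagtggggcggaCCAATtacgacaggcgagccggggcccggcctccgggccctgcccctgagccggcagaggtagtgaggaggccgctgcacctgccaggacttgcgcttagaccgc

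TCACNCCAC was in 1 of the 15 sterol synthesis promoters of the table, that of *Hmgcs1*, and in 330 of all 27025 promoters (1.22%). CCAAT was in 13 of the 15 (86.7%) and in 10248 of all (37.9%). *Hmgcs1* held 4 copies of CCAAT, *Idi1* 2 and *Msmo1* 3. These are matches of letters and not measured binding sites.

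Retinoic acid, made by *Aldh1a2* in the paraxial mesoderm, patterns the spinal cord. Of 15 measured genes of its pathway 3 were called higher in *Grhl3*-null dorsal cells and none lower (median 0.26). *Aldh1a2* stood at 60.4 and 55.7 CPM in WT and 106 and 123 CPM in *Grhl3*-null libraries (0.97 ± 0.13, adjusted p = 0.00057, edgeR). *Crabp1*, a retinoic acid binding protein, stood at 64.8 and 110 against 146 and 151 CPM, and was not called without WT replicate 1 (0.42). *Nr2f1*, a nuclear receptor that retinoic acid induces, stood at 13.8 and 24.5 against 48.5 and 44.6 CPM (1.30 ± 0.22, adjusted p = 0.0047, edgeR). *Rarb*, a retinoic acid receptor and target, lay at 7.28 and 10.1 against 16.7 and 20.4 CPM and did not pass. Within female cells *Aldh1a2* turned to −1.11. The paraxial genes, which mark a source of *Aldh1a2*, summed to 38.6 and 358 CPM in WT and 236 and 123 CPM in *Grhl3*-null cells. With cells of at least 3 *Tcf15* and *Meox1* UMIs removed, *Aldh1a2* and *Nr2f1* were still called and *Crabp1* was not (0.65). With all cells that held UMIs of other cell types removed *Nr2f1* alone was called (1.38), with *Aldh1a2* at 0.81 (adjusted p = 0.25, edgeR) and *Crabp1* at 0.47 (adjusted p = 0.52, edgeR).

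*Hox* genes are ordered along the body axis, the highest numbers the most caudal. Of 23 measured, 2 were called, both of group 9 and both lower, and 15 lay below 0 (median −0.16). *Hoxa9* stood at 105 and 70.8 CPM in WT and at 44.0 and 48.3 CPM in *Grhl3*-null libraries (−0.95 ± 0.16, adjusted p = 0.0043, edgeR). *Hoxc9* stood at 186 and 133 against 93.8 and 98.6 CPM (−0.75 ± 0.13), and was not called without WT replicate 1 (−0.47). *Hoxb9*, the other gene of the group that passed the filter, differed by −0.13 ± 0.07 and was found in 91.6% to 97.4% of the dorsal cells of a library. *Cdx4*, a caudal homeobox gene upstream of *Hox* genes, stood at 88.8 and 69.2 against 47.3 and 35.0 CPM (−0.96 ± 0.17), the only gene called of 10 on the neuromesodermal list. The ventral cells, in which 83 of 10180 genes were called between genotypes (0.815%, with 0.413% higher and 0.403% lower), had differences of −1.15 for *Hoxa9* and −0.81 for *Hoxc9*.

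These caudal differences turned with sex. *Hoxc9* stood at 200 and 153 CPM in WT female dorsal cells and at 27.9 and 18.4 CPM in the 6 WT male cells, and at 110 and 110 CPM in *Grhl3*-null male cells against 15.3 and 4.78 CPM in *Grhl3*-null female cells. In both pools the sex class that held most dorsal cells was the one with the higher *Hoxc9*. Within male cells *Hoxc9* was higher in *Grhl3*-null (2.35, adjusted p = 0.040, edgeR) and *Hoxa9* was at 0.75, and within female cells *Cdx4* was higher (0.89, adjusted p = 0.024, edgeR). Sex, embryo and genotype cannot be told apart for these genes.

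**Figure D4:**
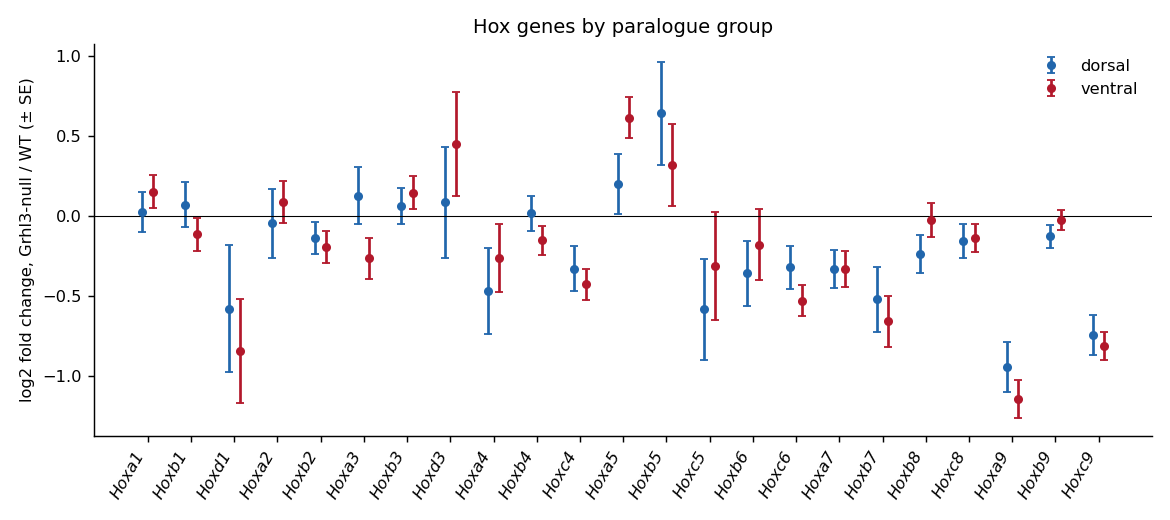
Log2 fold change of *Grhl3*-null over WT for each measured *Hox* gene, ordered by paralogue group, in dorsal (blue) and ventral (red) neuroepithelium, with the standard error of the edgeR fit. *Hoxa9* (−0.95 and −1.15) and *Hoxc9* (−0.75 and −0.81) lie below 0 in both classes and *Hoxb9* is close to 0.

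Neural crest and border genes gave 1 call each. *Tfap2b*, an AP-2 factor of the border and crest, stood at 4.37 and 1.69 CPM in WT and at 13.4 and 28.2 CPM in *Grhl3*-null dorsal cells (2.72 ± 0.54, adjusted p = 0.016, edgeR), and was not called without *Grhl3*-null replicate 2 (2.09). Its UMIs were held by 3 of 39 and 2 of 28 WT cells and by 9 of 91 and 18 of 107 *Grhl3*-null cells. It was the only one of 8 measured crest genes called, 7 of which lay above 0 (median 0.72). A gene that passed the filter on low counts only through the *Grhl3*-null libraries could only come out higher there. Counts for genes that passed within each genotype alone are not given, so these signs and this median are description. Of 9 surface ectoderm genes *Grhl3* alone was called. Among the other genes that rose were *Gadd45a* (72.8 and 81.8 against 110 and 154 CPM), *Zfp703*, a zinc finger repressor (20.4 and 22.8 against 41.5 and 45.4 CPM), and *1700011H14Rik* (11.6 and 13.5 against 33.4 and 44.4 CPM). *Gadd45a* was not called without *Grhl3*-null replicate 2 (0.53).

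Among the genes that fell, *Sparcl1*, a matrix glycoprotein, went from 24.7 and 24.5 to 5.29 and 7.57 CPM, and *Pgm2*, of the phosphoglucomutase family, from 19.6 and 17.7 to 6.68 and 4.44 CPM, and was not called without *Grhl3*-null replicate 2 (−1.46). *Ucp2*, a mitochondrial carrier, went from 21.1 and 13.5 to 6.40 and 7.31 CPM, and was not called without WT replicate 1 (−0.98) or either *Grhl3*-null replicate (−1.26 and −1.43). *Trh*, the thyrotropin-releasing hormone gene and the only called gene of the 2 measured on the gut endoderm list, stood at 38.6 and 8.43 against 4.18 and 4.44 CPM, so that WT replicate 1 decided it (−0.97 and not called without it). The imprinted growth regulators *Cdkn1c* (164 and 163 against 71.3 and 86.9 CPM) and *Plagl1* (71.3 and 60.7 against 41.5 and 39.1 CPM) were also lower, and *Cdkn1c* turned to 0.29 within male cells. *Plagl1* was not called without WT replicate 1 (−0.60) or either *Grhl3*-null replicate (−0.77 and −0.66).

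The sex-linked genes differed as the proportions of the sexes did, and the same genes classed the cells by sex. *Xist* fell from 653 and 603 to 162 and 55.3 CPM, and the Y-linked *Eif2s3y*, *Ddx3y* and *Uty* rose by 2.94, 2.83 and 2.55 on the log2 scale.

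Several of the strongest calls lie beside *Grhl3* on chromosome 4 or have a near-identical copy. *Grhl3* is at chr4:135541888-135573630 (mm10). Of 380 tested genes within 30 Mb of it 6 were called, *Grhl3* included (1.58%), beside 59 of 9238 elsewhere (0.639%). Among them were *Stmn1* (1.07 Mb away), *Grrp1* (1.29 Mb), *Hdac1* (6.0 Mb) and *Tceanc2* (28.4 Mb). *Tceanc2* was not called without either *Grhl3*-null replicate (−1.92 and −1.80). *Stmn1*, which destabilises microtubules, fell from 950 and 991 to 317 and 319 CPM, and in ventral cells from 920 and 911 to 303 and 356 CPM. *Hdac1*, a histone deacetylase, fell from 159 and 150 to 70.2 and 73.1 CPM, while *Gm10093* rose from 0.728 and 0 to 41.5 and 45.9 CPM (1 against 325 UMIs, ratio 112, exact interval 19.98 to 4440). The last 500 bases of their transcripts were 99.8% identical, and their sum stood at 159 and 150 against 112 and 119 CPM. *Gm10036* rose from 8.73 and 7.59 to 343 and 291 CPM and was 99.4% identical to *Rpl11*, which lies 0.455 Mb from *Grhl3*, and the sum of the pair was 3609 and 3508 against 3257 and 3206 CPM. *Gm10282* rose from 12.4 and 13.5 to 38.7 and 36.0 CPM and was 99.2% identical to *Hmgn2*, with a sum of 661 and 709 against 587 and 602 CPM. *Stmn1* and *Fdps* also have close copies, of which the table held only that of *Fdps* named *Gm43738*, at 0 to 0.261 CPM. *Scd1* and *Scd2* were 95.4% identical, and their sum fell from 532 and 469 to 349 and 318 CPM. *Acot1*, also lower, was 97.2% identical to *Acot2*, and the called genes *Elovl6*, *Mid1*, *Mrpl22* and *mt-Nd3* have copies for which no level was read. Reads of such pairs can be split in the counting, so these calls are uncertain. *Grrp1* rose from 19.6 and 15.2 to 33.7 and 43.3 CPM and turned to −1.71 within female cells.

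**Figure D5:**
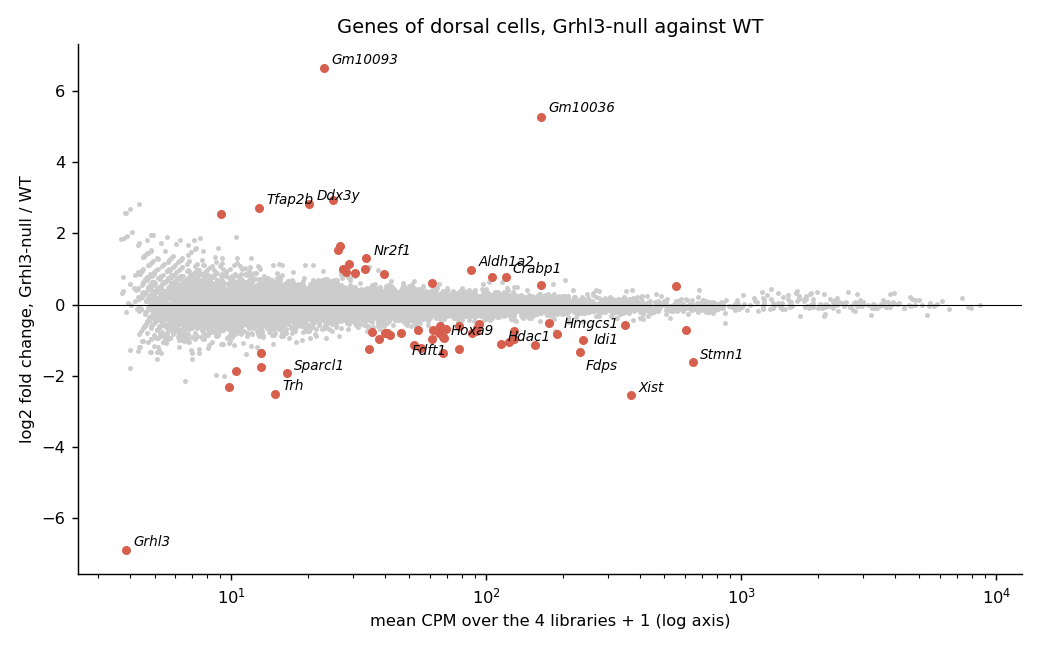
Each point is a gene tested in the dorsal cells, with its mean CPM + 1 over 4 libraries on a log axis and its log2 fold change, *Grhl3*-null over WT, from edgeR. Red points are the 65 called genes, 21 above and 44 below 0. *Gm10093* and *Gm10036* are the highest, and the sterol genes *Fdps*, *Idi1* and *Hmgcs1* lie among the lower ones.

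The difference between the dorsal and the ventral genotype effect was tested in 10382 genes over the same 8 sums, and 9 were called (0.0867%), 3 positive (0.0289%) and 6 negative (0.0578%). All 6 negative genes belong to lipid synthesis, *Pcyt2* (−1.45 ± 0.25), *Fdft1* (−1.0 ± 0.17), *Msmo1* (−0.78 ± 0.13), *Hmgcs1* (−0.78 ± 0.11), *Idi1* (−0.68 ± 0.11) and *Fdps* (−0.63 ± 0.11). *Hmgcs1* stood at 143 and 143 CPM in WT ventral cells and at 142 and 139 CPM in *Grhl3*-null ventral cells (log2 fold change −0.042, not called), whereas it fell in dorsal cells. *Fdps* fell in ventral cells as well, from 206 and 228 to 137 and 134 CPM, by less than in dorsal cells. Of the 20 sterol genes 18 had a larger decrease in dorsal cells, with a median difference of −0.61.

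*Crabp1* was the positive call with the largest difference (1.02 ± 0.17, adjusted p = 0.021, edgeR), at 38.6 and 52.6 CPM in WT and 38.6 and 39.0 CPM in *Grhl3*-null ventral cells. *Gja1*, which encodes the gap junction protein connexin 43, stood at 233 and 226 CPM in WT and 326 and 290 CPM in *Grhl3*-null dorsal cells, and at 235 and 224 against 207 and 213 CPM in ventral cells (0.57 ± 0.10). *Xist* was the third (0.86 ± 0.11). With cells holding UMIs of other cell types removed none of the 9 passed in edgeR (506 genes had an unadjusted p under 0.05), but all 9 kept their direction. The 6 negative genes then ranged from −0.61 (*Fdps*) to −1.60 (*Pcyt2*), and the median over the 20 sterol genes was −0.68, whereas *Crabp1* stood at 0.27, *Gja1* at 0.32 and *Xist* at 0.39. DESeq2 called 1 in all cells. *Crabp1*, *Gja1*, *Fdft1*, *Fdps*, *Msmo1* and *Pcyt2* were not called without *Grhl3*-null replicate 1, nor *Fdft1*, *Fdps* and *Pcyt2* without WT replicate 1.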

How the data were processed

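Caudal parts of pooled E8.5 mouse embryos were profiled in 4 libraries, 2 for each genotype. Per the labels, the authors made the UMI counts with Cell Ranger 3.0.0 on mm10, and deposited raw whole-number counts per gene and cell for called cells, 6186, 5698, 6177 and 6178 in WT 1, WT 2, *Grhl3*-null 1 and *Grhl3*-null 2. No cell annotation was used.

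Cells were filtered and gated as stated above, which left 5459, 5116, 4842 and 4781 cells with median UMIs of 33391, 34573, 38070 and 35514. Cells were classed as male with 2 or more UMIs from 4 Y-linked genes and no more than 2 of *Xist*, and as female with 3 or more of *Xist* and no more than 1 from the Y-linked genes. The libraries shared 7 to 16 barcodes in pairs. Automatic doublet calling marked 0.128% to 0.195% of cells and so had not worked. Doublets were left in, and an alternative removed the cells with the highest 5% of scores, among them 8 dorsal cells. Between the libraries of a genotype, gene counts varied beyond sampling (chi-square divided by its degrees of freedom was 1.52 in WT and 1.697 in *Grhl3*-null).

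UMIs of a class were summed per library and tested with edgeR 4.0.16 in R 4.3.3 (glmQLFTest, TMM, filterByExpr), adjusted by Benjamini-Hochberg over all genes tested. Called genes had an adjusted p below 0.05 together with an absolute log2 fold change of 0.5 or more. Errors on log2 fold changes are standard errors. The 9 genes of the gate were left out, as were the list genes *Aldoa* and *Hoxd4*, which have 2 IDs each. The test was checked on simulated data. DESeq2 1.42.0 was an alternative.

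The members and lists were chosen with earlier results of these data known. Named by rule were the genes of 29 lists, *Grhl3*, the gate genes and, at a mean of at least 10 CPM, the 10 called genes of largest log2 fold change in each direction (5 for the interaction). *Fdps* in the interaction, the called genes outside the rule and 3 lipid lists were named after their values were seen. A few genes that the rule or a list would name are not reported here. Near-identical copies were sought as matches of at least 95% identity over at least 80% of the last 500 bases of a transcript. Gene positions are those of GRCm38, the same build as mm10, and promoters are from RefSeq.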

Additional observations from a re-analysis of the deposited data

Results flagged for a closer look

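The genotype difference differed between dorsal and ventral neuroepithelium in 9 genes (edgeR interaction term). It was more negative in dorsal cells for *Pcyt2* (−1.45, adjusted p = 0.022), *Fdft1* (−1.0, adjusted p = 0.022), *Msmo1* (−0.78, adjusted p = 0.022), *Hmgcs1* (−0.78, adjusted p = 0.0068), *Idi1* (−0.68, adjusted p = 0.021) and *Fdps* (−0.63, adjusted p = 0.022). It was more positive for *Gja1* (0.57, adjusted p = 0.025), *Xist* (0.86, adjusted p = 0.0066) and *Crabp1* (1.02, adjusted p = 0.021). Within a sex none of the 9 passed in male or in female cells, and *Fdps* (0.084) changed sign in male cells. *Xist* was used to class the cells by sex, so its value within a sex is set by that choice.

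The count tables hold 2 features named for LacZ, which no comparison used. They had no UMI in the filtered cells of the WT libraries, and 15 and 25 UMIs in those of *Grhl3*-null replicates 1 and 2. No dorsal cell held any. *Grhl3* itself had 878 and 803 UMIs in the filtered WT cells and 12 and 14 in the filtered *Grhl3*-null cells.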

How the results depend on the processing

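Between genotypes in dorsal cells 65 genes were called. A minimum log2 fold of 1 left 31, and DESeq2 called 38, all among the 65. With no minimum fold the count was 110 and with no filter on low counts 136, the 65 included. Refits of fewer cells called partly other genes. With cells thinned to 15000 UMIs 44 were called (33 of them among the 65), without cells holding UMIs of other cell types 36 (28), in male cells 16 (3), which split into 12 higher and 4 lower, and in female cells 267 (35). *Grhl3*-null female and WT male cells are few. With each library left out the count was 61 to 173, at 134 without WT replicate 1 (50 of the 65) and 173 without WT replicate 2 (55). Replicate numbers did not pair the samples (correlation of deviations −0.0043 across genes), and with a replicate block the count was 121, with the block moving the share difference to 1.69.

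Between dorsal and ventral cells 463 genes were called. A minimum log2 fold of 1 left 255. DESeq2 called 215 (214 of them among the 463), cells thinned to 15000 UMIs 215 (188), removal of other cell types 244 (203), female cells 132 (114) and the WT libraries alone 216 (166), and the range with a library left out was 322 to 524. For the interaction 9 genes were called. A minimum log2 fold of 1 left 3, DESeq2 called 1 of the 9, thinned cells gave 6 calls (2 of the 9), and no filter on low counts gave 46. Male cells gave 1 call, not of the 9, and female cells and the removal of other cell types 0 each in edgeR (519 and 506 genes at an unadjusted p under 0.05). Leaving out a library gave 9 to 51, with 51 without WT replicate 1, 31 without WT replicate 2 and 18 without *Grhl3*-null replicate 2.

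The share of dorsal cells kept its direction except in female cells (−0.85), was 1.02 with TMM on the class counts and 1.33 with thinned cells, had a range of 1.52 to 1.91 with a library left out, and did not pass without WT replicate 1 (1.91). The share within the neuroepithelium was −0.060 in male cells and 0.18 to 0.54 with a library left out. For genes named between genotypes, 813 of 1071 repeats kept the call, 235 kept the direction alone and 23 turned, all 23 within a sex. Female cells gave *Xist* 0.37, *Grrp1* −1.71, *Aldh1a2* −1.11, *Cdx4* 0.89, *Mid1* 0.21 and *Pkdcc* −0.36, and male cells *Acot1* 2.70, *Vim* 2.37, *Idh1* 1.26, *Tuba1a* 0.90, *Isyna1* 0.31, *Sparc* 0.096, *Mrpl22* 0.10, *H2-K1* 0.082, *Nr6a1* −0.32, *Fdps* 0.22, *Ddx3y* −0.090, *Hoxa9* 0.75, *Hoxc9* 2.35, *Acat2* 0.27, *Cdkn1c* 0.29, *Scd1* 0.29 and *Scd2* 0.28. Between dorsal and ventral cells, *Rbp4* turned to 1.10 when thinned, 0.33 without cells of other types, 0.47 in male cells and 0.21 at a mitochondrial limit of 5%, *Car4* to 0.14 when thinned, *Sox9* to −0.97 without cells of other types and *Meox1* to −0.011 without cells of 3 or more *Tcf15* and *Meox1* UMIs, an alternative chosen after seeing the data. In the interaction, male cells gave *Fdps* 0.084 and *Xist* −7.17. *Xist* and *Ddx3y* classed the cells by sex, and *Meox1* chose the cells removed, so their values there are set by that choice. The cause of the other turns was not tested. WT male cells numbered 6, which limits every value within males.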

Other observations

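The other 18 called genes between genotypes are named here after their values were seen. *Tuba1a*, an alpha tubulin, stood at 785 and 719 CPM in WT and 483 and 435 CPM in *Grhl3*-null dorsal cells (log2 fold change −0.72 ± 0.07 SE). *Vim*, the intermediate filament vimentin, stood at 62.6 and 102 against 48.7 and 44.4 CPM, *Mid1*, a microtubule-bound ubiquitin ligase, at 61.1 and 54.0 against 37.0 and 29.2 CPM, and *Sparc*, a matrix protein, at 61.8 and 90.2 against 42.0 and 49.6 CPM. *Idh1*, a cytosolic source of NADPH, was lower at 27.8 and 30.8 CPM than in WT (48.0 and 53.1 CPM), and so were the linker histone gene *Hist1h1b* (−0.81 ± 0.12), *Isyna1* of inositol synthesis (−0.61 ± 0.13), *H2-K1*, *Acot1*, *Mrpl22* and *Rep15*. In *Rep15* WT replicate 2 held the difference (5.82 and 23.6 against 3.06 and 2.61 CPM).

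Among the higher genes *Nr6a1*, a nuclear receptor that governs trunk development, stood at 140 and 123 CPM in WT and 193 and 198 CPM in *Grhl3*-null dorsal cells (0.56 ± 0.10). *Ank3*, which encodes ankyrin G, stood at 20.4 and 16.9 against 36.8 and 34.7 CPM, *Fzr1*, an activator of the anaphase-promoting complex, at 25.5 and 29.5 against 46.8 and 53.5 CPM, and *Pkdcc*, a secreted kinase, at 20.4 and 21.1 against 35.9 and 41.0 CPM. *Apba2*, *Epb41l4aos* and the mitochondrial gene *mt-Nd3* were the others. For each of these genes both libraries of a genotype lay on the same side of both of the other. All were picked by their calls, so this separation adds no support. Of these genes 11 turned within a sex, and 16, all but *Tuba1a* and *Hist1h1b*, were not called with some library left out. *Fzr1*, *H2-K1*, *Pkdcc* and *mt-Nd3* were not called without WT replicate 1, and *Vim*, *Nr6a1*, *Rep15*, *Apba2*, *Ank3*, *Sparc*, *Acot1* and *Epb41l4aos* not without WT replicate 2. The log2 fold changes behind these losses moved by unlike amounts. Without WT replicate 1 *mt-Nd3* was at 0.48 (0.51 with all libraries) and *Pkdcc* at 0.86 (0.89). Without WT replicate 2 *Nr6a1* was at 0.48 (0.56), *Vim* at −0.43 (−0.81) and *Rep15* at −1.03 (−2.31). *Idh1*, *Rep15*, *Ank3*, *Isyna1*, *Sparc*, *Mrpl22*, *Acot1*, *Epb41l4aos* and *mt-Nd3* were not called without *Grhl3*-null replicate 1, and *Mid1*, *Rep15*, *Apba2*, *Isyna1*, *Pkdcc* and *Epb41l4aos* not without *Grhl3*-null replicate 2.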
